A study of Mus musculus with 80 samples.

Results

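The hippocampal subfield marker genes described here are 9 genes, taken by name from the count table of 27179 genes. All 9 were among the 13016 genes that passed the filter for testing. Dsp, Lct and Spink8 passed it only through the hippocampus. Of the 9, Prox1, Dsp, Tdo2, Lct and Trpc6 mark the granule cells of the dentate gyrus, Wfs1, Fibcd1 and Spink8 mark the pyramidal cells of field CA1, and Iqgap2, given with the markers of the hippocampal fields, was put in neither group here.

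The study sequenced polyadenylated RNA from the hypothalamus, hippocampus, neocortex, cerebellum and amygdala of 16 C57BL/6 female mice (C57BL/6J in the study's methods), 8 virgin and 8 primiparous, and asked whether gene expression still differs after a female has raised a litter. Each library came from 1 animal, and each animal gave all 5 regions. Of the 80 libraries 3, all virgin, were removed by the authors as outliers, which left 77 libraries. All females were of the same age and were kept in 1 room. Primiparous females were housed with a male from the age of about 8 weeks until the males were taken away, gave birth to a single litter, and were collected on the same day as the virgins. The labels give the time from weaning to collection as 3 weeks, while the study's methods give a longer interval. Virgin females lived in groups of 8 per cage and never met a male, so that mating, pregnancy, nursing and housing cannot be told apart in the comparison of the 2 states. The whole hypothalamus was used, and only the left side of the other regions. The hippocampus was taken as 1 piece, without separating its fields. In such bulk tissue, fewer cells of a type and less RNA per cell cannot be told apart.

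The hippocampus is a loop of excitatory neurons. Granule cells of the dentate gyrus receive the input from the entorhinal cortex and send mossy fibres to the pyramidal cells of field CA3, which project to CA1, the main output of the loop. Each of these cell types expresses its own set of transcription factors, channels and enzymes, and their transcripts are widely used to tell the fields apart in sections and in sequencing data. A gene that marks a field within the hippocampus may be used by other neurons elsewhere in the brain.

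Total counts assigned to genes ran from 7959192 to 37871854 per library over the series and from 14404113 to 37871854 over the 15 hippocampal libraries. No 2 libraries held identical counts. In the hippocampus, the library of primiparous animal 413 stood apart with 628 CPM (counts scaled to the library total) summed over 8 cerebellar genes, against 22.0 to 63.4 CPM in the other 14 libraries. Summed choroid plexus genes ranged from 62.8 to 3986 CPM and exceeded 900 CPM in 4 hippocampal libraries, those of virgin animals 4487 and 4488 and primiparous animals 421 and 425. The thalamic genes summed to 221 CPM in virgin animal 4487 and to at most 102 CPM in the other hippocampal libraries. The part of these libraries in the results below was not tested beyond leaving them out, as given where it applies. The libraries of each region were pooled for sequencing, so that a difference between regions and a difference between sequencing pools cannot be told apart.

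The promoters of Lct, Dsp and Iqgap2, whose hippocampal levels had the highest correlations among the members, and of Fibcd1, which did not follow them, are shown as windows of 300 bases, 250 before and 50 after the RefSeq start (GRCm38.p6, the build called mm10 in the study). Such a window was found for 8 of the 9 members, Spink8 being the exception. Capitals mark every match to CANNTG, the E-box read by basic helix-loop-helix factors, a family with many members that act in neurons. CANNTG reads the same on both strands, and 72.3% of the 32851 windows of this table hold it at least 1 time. The windows are given 5′ to 3′ on the strand of the gene. Lct lies on the minus strand (chr1:128328269-128328568), Dsp on the plus strand (chr13:38151044-38151343), and Iqgap2 (chr13:95891873-95892172) and Fibcd1 (chr2:31845956-31846255) on the minus strand.
Lct: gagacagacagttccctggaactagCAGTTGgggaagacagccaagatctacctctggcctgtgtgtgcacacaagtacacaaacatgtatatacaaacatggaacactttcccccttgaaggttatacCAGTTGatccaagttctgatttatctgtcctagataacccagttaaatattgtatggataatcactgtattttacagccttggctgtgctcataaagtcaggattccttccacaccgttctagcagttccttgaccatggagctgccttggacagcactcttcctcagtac
Dsp: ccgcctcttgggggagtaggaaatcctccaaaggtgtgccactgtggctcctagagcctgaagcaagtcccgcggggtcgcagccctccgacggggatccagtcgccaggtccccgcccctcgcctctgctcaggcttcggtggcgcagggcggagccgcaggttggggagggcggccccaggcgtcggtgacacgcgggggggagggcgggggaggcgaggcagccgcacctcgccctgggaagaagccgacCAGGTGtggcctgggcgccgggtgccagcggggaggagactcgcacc
Iqgap2: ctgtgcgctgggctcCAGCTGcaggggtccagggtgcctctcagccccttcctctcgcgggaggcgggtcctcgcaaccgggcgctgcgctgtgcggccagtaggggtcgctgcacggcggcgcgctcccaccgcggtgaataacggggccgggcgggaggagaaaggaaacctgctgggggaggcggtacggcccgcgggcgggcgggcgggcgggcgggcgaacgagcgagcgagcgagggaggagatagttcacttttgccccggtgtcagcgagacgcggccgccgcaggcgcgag
Fibcd1: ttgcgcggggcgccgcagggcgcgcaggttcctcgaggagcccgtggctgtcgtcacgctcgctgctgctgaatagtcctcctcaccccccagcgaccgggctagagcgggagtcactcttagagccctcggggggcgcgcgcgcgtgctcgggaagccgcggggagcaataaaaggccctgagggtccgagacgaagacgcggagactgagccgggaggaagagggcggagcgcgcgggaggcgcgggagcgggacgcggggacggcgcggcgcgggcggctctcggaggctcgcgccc

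The Lct window held 2 matches to CANNTG, the windows of Dsp and Iqgap2 held 1 each, and the Fibcd1 window held 0. Of the windows not shown, the 2 of Prox1 held 2 and 0 matches, that of Wfs1 held 1, and those of Tdo2 and Trpc6 held 0. In base composition Lct also differed from the other windows shown. It had 44.7% G and C and 1 CG dinucleotide, against 73% and 27 in Dsp, 74.3% and 41 in Iqgap2, and 74.3% and 46 in Fibcd1. The Tdo2 window, not shown, was near that of Lct, with 47.7% G and C and 4 CG dinucleotides. The median of all windows was 52.7% G and C and 7 CG dinucleotides. CAGATG, 1 form of this motif, was searched on both strands and found in the Wfs1 window and in 1 of the 2 Prox1 windows and in 17.2% of all windows. These matches are letters in a window, and no binding was measured.

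Prox1 (chr1:190118035-190170714) encodes the homeobox transcription factor that sets and keeps the identity of dentate granule cells. It had 64.9 ± 12.8 CPM in the hippocampus (SD, n = 15), with a lowest library of 44.6, a median of 65.8 and a highest of 91.6 CPM. Its next levels were 27.0 ± 4.14 CPM in the cerebellum (n = 15) and 22.2 ± 2.50 CPM in the hypothalamus (n = 16). Every hippocampal library lay above every library elsewhere, but Prox1 was well covered elsewhere too, with at least 222 counts in every cerebellar library. It was low in the amygdala (8.38 ± 2.13 CPM) and the neocortex (4.86 ± 1.79 CPM).

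Dsp (chr13:38151294-38198577) encodes desmoplakin, which anchors intermediate filaments at desmosomes and is known in the brain as a granule cell transcript. Its hippocampal libraries held 50.9 CPM at the lowest, 74.4 at the median and 111 at the highest, with a mean of 76.5 ± 17.3 CPM. The highest library outside the hippocampus held 4.40 CPM, in the hypothalamus, where the mean was 2.28 ± 0.929 CPM. In the amygdala, neocortex and cerebellum the means were 0.839, 0.774 and 1.01 CPM. The hippocampus made up 94.0% of the sum of the 5 regional means.

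Lct (chr1:128284756-128328318) encodes lactase, the enzyme of the small intestine that splits milk sugar. Hippocampal libraries ran from 35.6 through a median of 60.4 to 87.3 CPM, with a mean of 60.9 ± 13.4 CPM. The highest mean elsewhere was 1.68 ± 0.486 CPM in the neocortex (n = 16), and 3 of the 16 hypothalamic libraries held no Lct count at all. The hippocampal share of the summed regional means was 94.7%.

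Tdo2 (chr3:81957090-81976202) encodes tryptophan dioxygenase, the first enzyme of tryptophan breakdown along the kynurenine path. It had 3.32 to 8.36 CPM in the hippocampal libraries (median 6.34, mean 6.14 ± 1.38). The cerebellum ran from 4.55 to 10.4 CPM with a median of 8.44 and a mean of 8.22 ± 1.70 CPM (n = 15), and the ranges of the 2 regions overlapped. In the amygdala, neocortex and hypothalamus the means were 0.417, 0.363 and 0.283 CPM, and 2, 1 and 4 of those libraries held no count. The hippocampal library of animal 413, which holds the cerebellar genes, had 6.58 CPM of Tdo2, within the range of the other 14.

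Trpc6 (chr9:8544142-8680741) encodes a cation channel of the canonical transient receptor potential family that opens in response to diacylglycerol. It had 22.1 ± 3.16 CPM in the hippocampus, between 18.1 and 27.9 CPM with a median of 21.3. The neocortex followed at 11.3 ± 1.61 CPM, and its highest library, at 14.6 CPM, stayed under the lowest hippocampal library. Means in the amygdala, hypothalamus and cerebellum were 6.20, 5.19 and 1.86 CPM, with overlapping ranges from each region to the next.

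Wfs1 (chr5:36966104-36989205) encodes wolframin, a glycoprotein of the endoplasmic reticulum that is mutated in Wolfram syndrome and a classical label of CA1 pyramidal cells. It did not have its highest level in the hippocampus. The amygdala held 245 ± 30.8 CPM (185 to 291, median 250, n = 15) and the hippocampus 155 ± 16.8 CPM (126 to 187, median 159, n = 15), and the ranges of these regions overlapped. The hypothalamus (107 ± 16.8 CPM) and the neocortex (98.9 ± 12.9 CPM) came next, and the cerebellum was lowest at 57.1 ± 3.27 CPM. Wfs1 was the member most evenly spread over the brain, with 23.4% of the summed regional means in the hippocampus.

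Fibcd1 (chr2:31813290-31846005) encodes a transmembrane receptor with a fibrinogen-like domain that binds chitin and other acetylated glycans. It had 206 ± 33.5 CPM in the hippocampus, with a range of 150 to 261 CPM around a median of 197. The neocortex, amygdala and hypothalamus had 17.1 ± 3.70, 14.8 ± 3.36 and 12.7 ± 2.45 CPM, with overlapping ranges. The cerebellum stood apart below them at 0.687 ± 0.341 CPM, from 4 to 22 counts per library.

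Spink8 (chr9:109812280-109826633) encodes a small Kazal-type inhibitor of serine proteases. Its hippocampal libraries held 16.9 to 27.0 CPM with a median of 23.1 and a mean of 22.5 ± 2.74 CPM. The amygdala followed with 2.85 ± 0.961 CPM, and the neocortex, hypothalamus and cerebellum had 1.00, 0.526 and 0.146 CPM. In the cerebellum 5 of 15 libraries held no count.

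Iqgap2 (chr13:95627177-95891922) encodes a scaffold protein that binds calmodulin and the small GTPases Rac and Cdc42. It had 141 ± 13.3 CPM in the hippocampus, from 118 through a median of 139 to 167 CPM, and varied the least of the 9 there, with a coefficient of variation of 9.42%. In the neocortex it had 30.5 ± 5.49 CPM, in the amygdala 25.8 ± 5.95 CPM, in the hypothalamus 7.89 ± 1.54 CPM and in the cerebellum 3.03 ± 0.741 CPM. In this order the ranges of the neocortex and the amygdala overlapped, as did those of the hypothalamus and the cerebellum, while the other neighbours were apart.

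**Figure D1:**
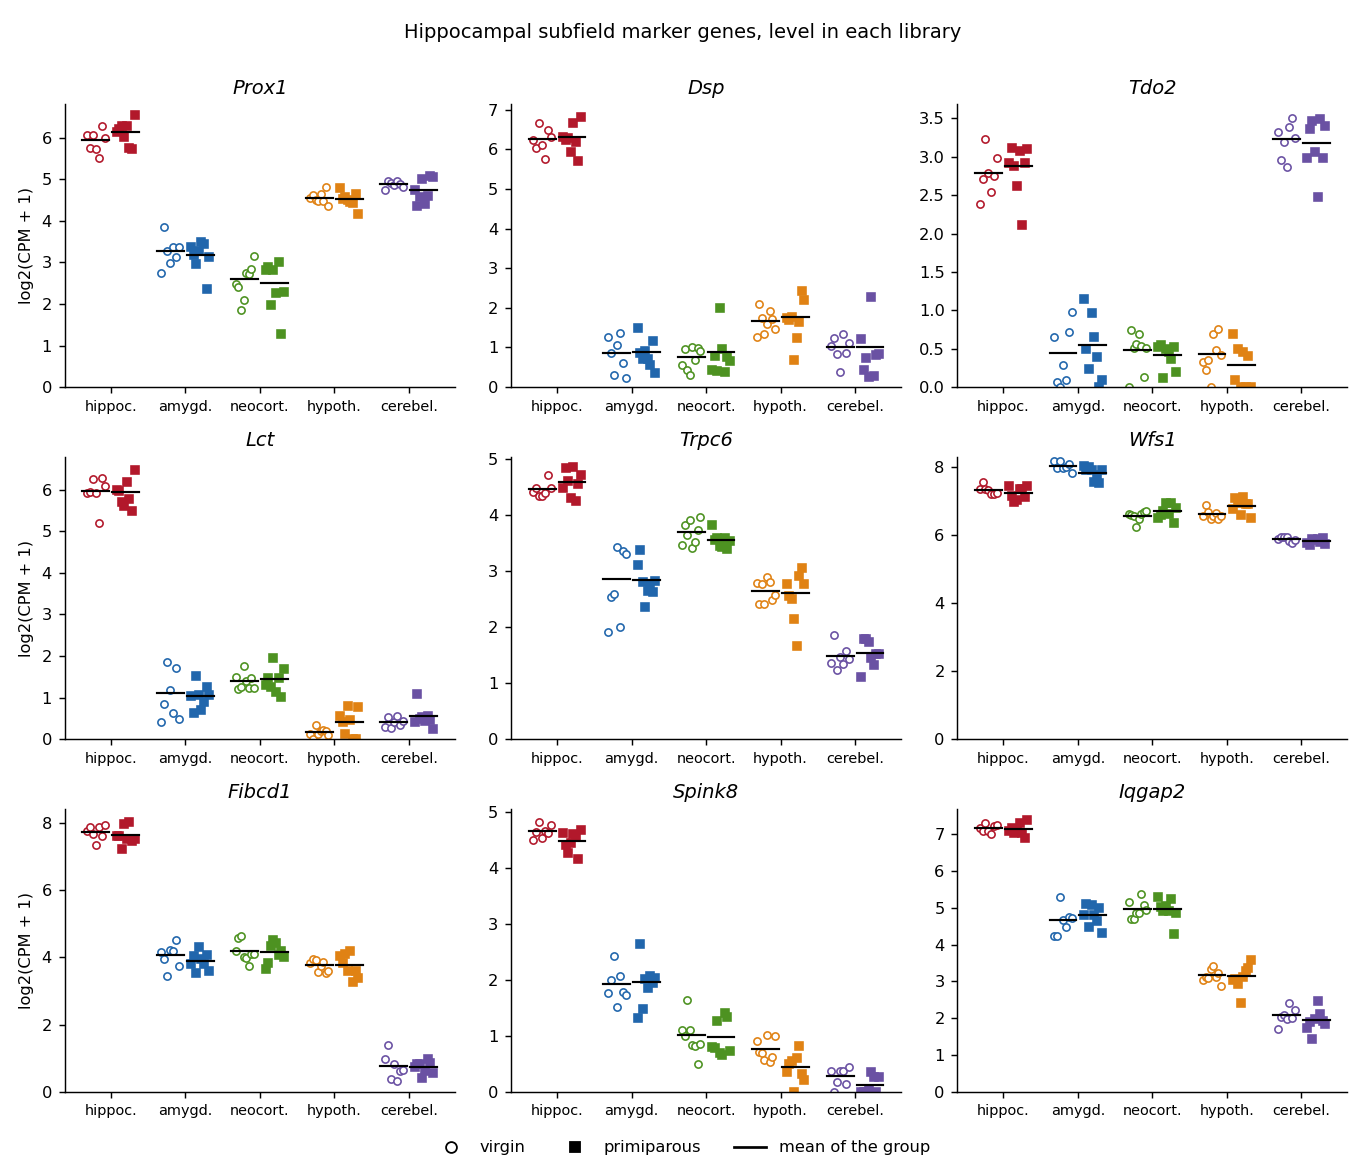
Level of each member in each of the 77 libraries, as log2(CPM + 1) on the vertical axis, by region; open circles are virgin and filled squares primiparous libraries, and black lines are the log2 of the group's mean CPM plus 1. The hippocampal points are above all others in 7 of the 9 panels, while Tdo2 reaches a similar level in the cerebellum and Wfs1 a higher level in the amygdala.

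Read counts grow with transcript length, so the levels of single members were compared with each other per kilobase of exon. On that scale the CA1 members led in the hippocampus, with 43.4 CPM per kilobase for Fibcd1, 41.0 for Wfs1 and 27.5 for the short Spink8 transcript. Iqgap2 had 24.5 CPM per kilobase. The dentate members followed with 9.50 for Lct, 7.92 for Dsp, 7.74 for Prox1, 4.37 for Trpc6 and 1.58 for Tdo2. Exons of Prox1 and of Dsp overlap an opposite-strand gene in the annotation (Prox1os and Gm10129). The library kit does not mark strand, so reads from such overlaps cannot be assigned to 1 of the 2 genes.

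Every hippocampal library was above every library of the other 4 regions for 7 of the 9 members, a pattern that 1.60% of all tested genes showed. Against single regions, this separation held for 9 members with the neocortex (6.52% of all genes) and for 8 members with the amygdala (4.99%), the hypothalamus (11.0%) and the cerebellum (16.6%). Wfs1 was the exception for the amygdala and the hypothalamus, and Tdo2 for the cerebellum. These genes are known as hippocampal markers, so the direction of these differences follows from how they were picked. Dsp, Lct and Spink8, which entered the test only through their hippocampal counts, had to differ, and the counts of members here and in the next paragraph are a description.

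The size of each difference was estimated with edgeR's quasi-likelihood F-test over all 13016 genes with Benjamini-Hochberg adjustment, taking both states together. Against the amygdala 9 members passed the test, where 58.7% of all genes did, 8 of them higher in the hippocampus (28.7% of all genes) and Wfs1 lower. Against the neocortex 9 members passed (67.0% of all genes), all higher (32.7%). Against the hypothalamus 9 passed (73.0%), all higher (36.1%), and against the cerebellum 8 passed (78.7%), all higher (38.5%). The median log2 difference over the 9 members was 2.99, 3.74, 4.32 and 5.70 against the amygdala, neocortex, hypothalamus and cerebellum, while the medians over all tested genes lay between -0.02 and 0.00.

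Among the dentate members, Lct and Dsp had the widest gaps. Lct was higher in the hippocampus than in the hypothalamus by 8.23 on the log2 scale (SE 0.213) and than in the neocortex by 5.23 (SE 0.161). Dsp was higher than in the hypothalamus by 5.18 (SE 0.207) and than in the neocortex by 6.68 (SE 0.232). Such gaps rest on few reads on the low side, since hypothalamic libraries held 0 to 14 counts of Lct and 9 to 77 of Dsp. Over 8 alternatives the Lct difference from the hypothalamus ran from 7.26 to 8.46. Prox1 had its smallest difference against the cerebellum, 1.39 (SE 0.117, adjusted p = 3.83e-18), or 2.62-fold. For Trpc6 the neocortex was nearest, at 0.99 (SE 0.113, adjusted p = 2.66e-12), or 1.98-fold.

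Tdo2 was 3.90, 4.01 and 4.52 higher on the log2 scale in the hippocampus than in the amygdala, neocortex and hypothalamus, with adjusted p-values of at most 1.25e-22. Over 8 alternatives the first and the last of these ran from 3.57 to 4.53 and from 3.85 to 4.96. Between the hippocampus and the cerebellum its log2 difference was -0.29 (SE 0.194, adjusted p = 0.170), which did not pass the test. It passed, with Tdo2 lower in the hippocampus, by limma-voom (-0.31, adjusted p = 0.0121) and in edgeR on library totals without composition factors (-0.43, adjusted p = 0.0401), and not in 6 other alternatives. Without composition factors the median of all genes in this comparison itself lay at -0.16.

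The CA1 members did not share 1 pattern. Fibcd1 was higher in the hippocampus by 3.63 to 4.16 on the log2 scale against the other forebrain regions and by 8.45 against the cerebellum (SE 0.150, adjusted p = 1.44e-59). Spink8 differed least from the amygdala, by 2.99 (SE 0.161), and most from the cerebellum, by 7.58 (SE 0.235). The latter rests on 0 to 7 counts per cerebellar library, with 10 of 15 libraries at 3 counts or fewer, and ran from 6.09 to 7.77 over 8 alternatives. Wfs1 was lower in the hippocampus than in the amygdala by -0.65 on the log2 scale (SE 0.0575, adjusted p = 6.21e-17), which is 1.57-fold. It was higher than in the neocortex by 0.68 and than in the hypothalamus by 0.69, about 1.61-fold in both cases, and than in the cerebellum by 1.58 (SE 0.0594, adjusted p = 2.41e-39). Iqgap2 was higher by 2.24 against the neocortex, 2.47 against the amygdala, 4.32 against the hypothalamus and 5.70 against the cerebellum, with standard errors of 0.0901 to 0.116.

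**Figure D2:**
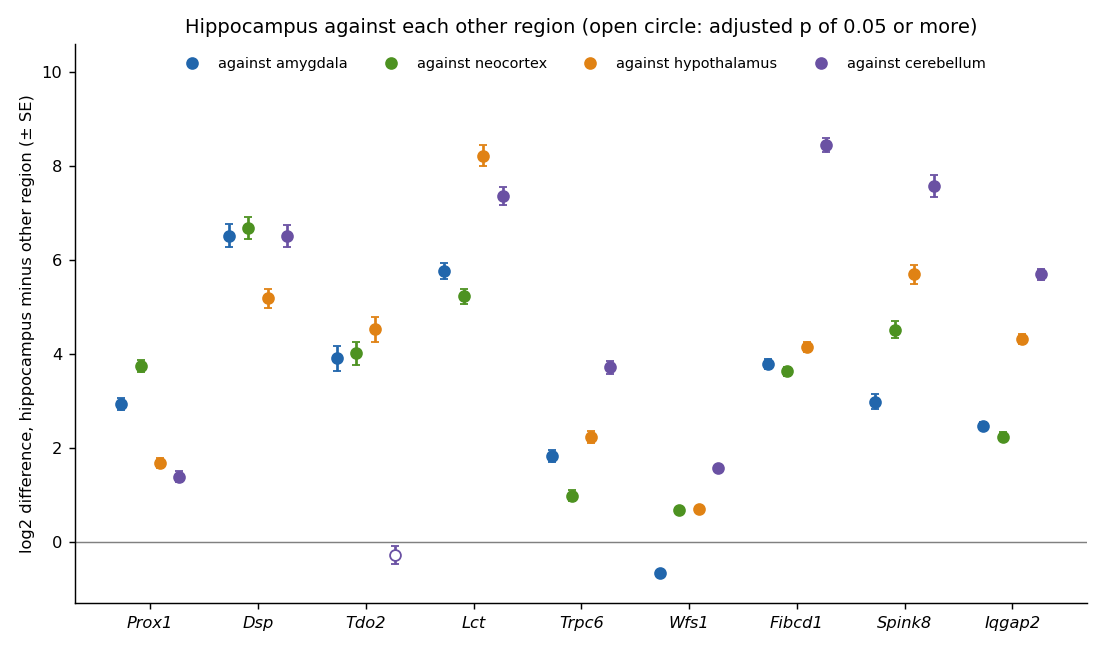
Log2 difference of each member between the hippocampus and each other region (vertical axis, points with ± SE from edgeR, 77 libraries), coloured by the region compared; filled points passed an adjusted p of 0.05 and the open point did not. All points lie above 0 except Wfs1 against the amygdala (-0.65) and Tdo2 against the cerebellum (-0.29).

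In the hippocampus itself, virgin and primiparous females were compared to see whether the transcripts of its fields differ after a litter. None of the 9 members passed the test (edgeR, adjusted p under 0.05; 0% of all genes did), and with limma-voom and DESeq2, which called 0 and 13 genes, the count of members was also 0. A single fit of all 10 groups called 6 genes. At an unadjusted p under 0.05, 961 of 13016 genes and 1 member were counted. That member was Spink8, which had 21.5 CPM at the lowest, 23.9 at the median and 27.0 at the highest in the 7 virgin libraries and 16.9, 21.7 and 24.4 CPM in the 8 primiparous libraries. Its log2 difference was -0.18 (SE 0.0742, adjusted p = 0.652 by edgeR). In this comparison 7 of 8 primiparous libraries lay under the virgin mean of 24.1 CPM.

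The other CA1 members had estimates of the same sign that did not pass. Fibcd1 had 214 ± 29.2 CPM in virgin and 199 ± 37.5 CPM in primiparous libraries, a log2 difference of -0.09 (SE 0.116, adjusted p = 0.893 by edgeR). Wfs1 had 160 ± 14.0 and 151 ± 18.8 CPM, a difference of -0.08 (SE 0.0691, adjusted p = 0.839). The ranges of the 2 states overlapped for both genes.

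Of the dentate members, Prox1 had the largest estimate. Virgin libraries held 44.6 to 77.1 CPM with a median of 62.1 and primiparous libraries 51.6 to 91.6 CPM with a median of 70.7, a log2 difference of 0.21 (SE 0.134, adjusted p = 0.766 by edgeR). Trpc6 had 21.0 ± 2.08 CPM in virgin and 23.1 ± 3.71 CPM in primiparous libraries, a difference of 0.15 (SE 0.0891, adjusted p = 0.757). Dsp (0.06, SE 0.167), Tdo2 (0.09, SE 0.160) and Lct (-0.04, SE 0.169) lay within 1 standard error of 0, as did Iqgap2 (-0.02, SE 0.0618). Animals numbered with 3 digits gave 7 of 8 primiparous and 2 of 7 virgin hippocampal libraries, so the number series largely goes with the state.

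In the amygdala, neocortex and cerebellum the members called between the states numbered 0 as well, against 0%, 0% and 0.707% of all genes. At an unadjusted p under 0.05 these comparisons counted 1, 0 and 1 of the 9 members, where 1544, 1276 and 2538 of 13016 genes were counted. The 92 genes called in the cerebellum became 0 with the number series of the animals as a covariate, 505 with DESeq2, 6 without virgin animal 4486, 8 without virgin animal 409 and 903 without primiparous animal 4493. The 0 genes called in the amygdala became 106 with DESeq2, 142 in 1 fit of all 10 groups, 14 with the number series, 31 without primiparous animal 413 and 2 without virgin animal 4486. Those of the neocortex became 6 in 1 fit of all 10 groups. Wfs1 in the amygdala had 263 ± 22.4 CPM in 7 virgin and 229 ± 29.2 CPM in 8 primiparous libraries, with every primiparous library under the virgin mean, and a log2 difference of -0.19 (SE 0.0772, adjusted p = 0.326 by edgeR). Spink8 in the cerebellum was near 0 in both states, at 0 to 7 counts per library.

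In the hypothalamus, where 22.6% of all genes passed, 1 of the 9 members did. Wfs1 had 87.9 CPM at the lowest, 94.3 at the median and 118 at the highest in the 8 virgin libraries and 90.7, 120 and 139 CPM in the 8 primiparous libraries. The means were 97.3 ± 9.69 and 117 ± 17.2 CPM, 6 of 8 primiparous libraries were above the virgin mean, and the ranges overlapped. The log2 difference was 0.24 (SE 0.0770, adjusted p = 0.0292 by edgeR). It did not pass with limma-voom (0.22, adjusted p = 0.0590), with the number series of the animals as a covariate (0.08, adjusted p = 0.678) or after a correction for gene length and GC content (0.08, adjusted p = 0.481). Leaving out 1 library at a time gave 0.19 to 0.28 and lost the call in 7 of 16 fits, those without primiparous animals 414 and 421 and without virgin animals 405, 4487, 4488, 4490 and 4491. Among animals with 3-digit numbers the mean was 120 CPM in 7 primiparous and 106 CPM in 2 virgin libraries, and among those with 4-digit numbers it was 90.7 CPM in the 1 primiparous library and a mean of 94.2 CPM in 6 virgin libraries.

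Spink8 and Lct were scarce in the hypothalamus. Spink8 had 5 to 17 counts in virgin and 0 to 9 counts in primiparous libraries, means of 0.700 and 0.352 CPM, and a log2 difference of -1.08 (SE 0.441, adjusted p = 0.0769 by edgeR). It passed with limma-voom (adjusted p = 0.0489) and in 1 fit of all 10 groups (adjusted p = 0.0356). Lct had 0 to 4 and 0 to 14 counts, and its log2 difference of 1.47 (SE 0.672) did not pass (adjusted p = 0.111). Across all 5 regions no member had virgin and primiparous libraries that did not overlap. Such a separation was shown by 0.0845% of all genes in the hippocampus, 0.146% in the amygdala, 0.0154% in the neocortex, 0.884% in the hypothalamus and 0.323% in the cerebellum.

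**Figure D3:**
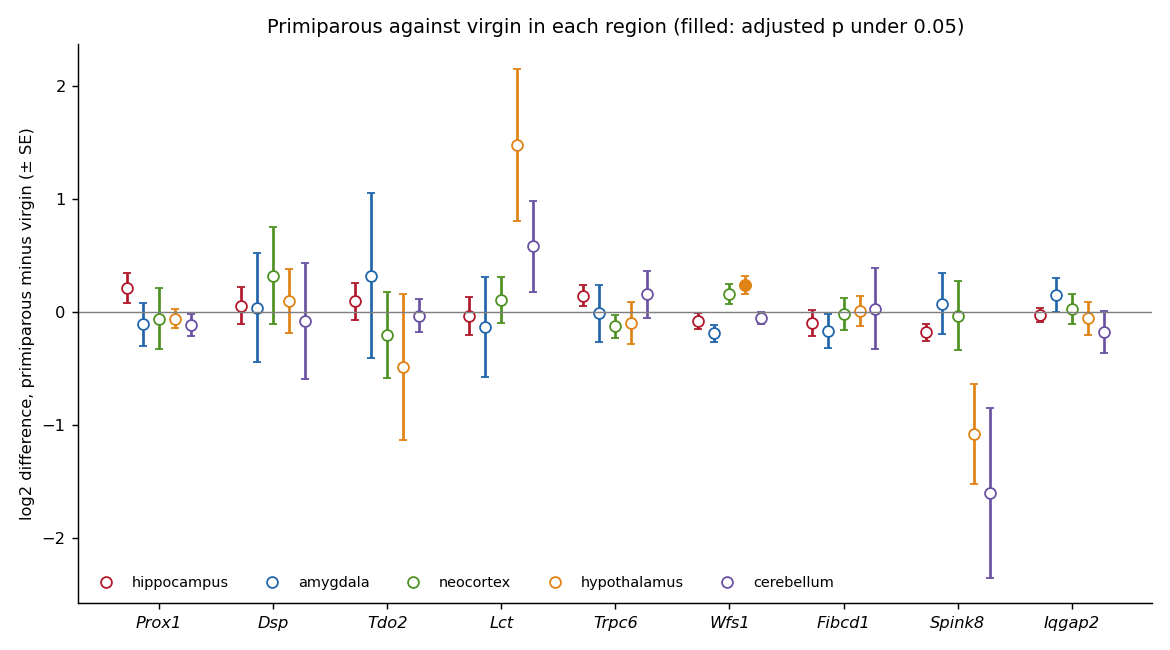
Log2 difference between primiparous and virgin libraries (vertical axis, points with ± SE from edgeR) for each member in each region; a filled point passed an adjusted p of 0.05. Wfs1 in the hypothalamus (0.24) is the 1 filled point, and the widest bars belong to Lct, Tdo2 and Spink8 in regions where they had few counts.

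An interaction term asked whether virgin and primiparous females differed by another amount in the hippocampus than in each other region. Between the hippocampus and the hypothalamus 1 of 9 members passed, where 17.2% of all genes did. Spink8 had a negative estimate in both regions, nearer to 0 in the hippocampus, and passed in neither alone. Its interaction was 0.92 on the log2 scale (SE 0.306, adjusted p = 0.0343 by edgeR). With the animal as a replicate block the value was 0.96 with an adjusted p of 0.0717, and with limma-voom the adjusted p was 0.0859. Wfs1, with a negative estimate in the hippocampus and a positive one in the hypothalamus, had an interaction of -0.31 (SE 0.112, adjusted p = 0.0525). With DESeq2, with RLE factors, on library totals alone and without animal 413 it passed, with adjusted p-values of 0.0308, 0.0476, 0.0339 and 0.0338. Lct, with its few hypothalamic counts, had an interaction of -1.56 (SE 0.703, adjusted p = 0.118 by edgeR) and passed with DESeq2 alone (adjusted p = 0.0144). The interactions with the amygdala, the neocortex and the cerebellum counted 0 members, against 0%, 0% and 0.169% of all genes, and 0, 1 and 1 members at an unadjusted p under 0.05, where 844, 1690 and 1992 of 13016 genes were counted.

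Within the hippocampus the members differed from animal to animal, and the correlations between pairs of dentate members were positive. Correlations were computed on log2(CPM + 4) over the 15 hippocampal libraries and are a description, since all values of a library share its dissection, its depth and the constraint that CPM sum to a fixed total. The 10 pairs of dentate members had Pearson correlations of 0.41 to 0.91 with a median of 0.55. The highest was that of Dsp with Lct (r = 0.91, Spearman's rho = 0.90, and r = 0.87 without the 2 libraries farthest from the median of Dsp). In the 2 libraries with the least Dsp, primiparous 427 and virgin 4488, Lct was 44.0 and 35.6 CPM, and in the library with the most Dsp, primiparous 4493, it was 87.3 CPM.

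Prox1 went with Dsp at r = 0.82 (rho = 0.79, 0.69 without 2 libraries) and with Lct at r = 0.73 (rho = 0.63, 0.47 without 2 libraries). Trpc6 was closest to Prox1 (r = 0.66) and had 0.44 with Dsp and 0.41 with Lct. Tdo2 had 0.51 to 0.57 with each of the other 4. Such middling values were common. A correlation with Dsp at least as far from 0 as that of Tdo2 was shown by 14.1% of all tested genes and as that of Trpc6 by 21.3%, against 0.0307% for Lct and 0.415% for Prox1. The ratio of the highest to the lowest of the 15 libraries was 2.04 for the summed dentate members, from 158 to 322 CPM.

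Iqgap2, which was assigned to no field, varied most closely with Dsp and Lct. Its correlation was 0.88 with Dsp (rho = 0.79), 0.87 with Lct (rho = 0.85), 0.71 with Prox1, 0.51 with Tdo2 and 0.38 with Trpc6. With the CA1 members Iqgap2 had 0.62 (Spink8), 0.37 (Wfs1) and -0.02 (Fibcd1). Ranked by correlation with Iqgap2 among 13014 tested genes, Dsp had rank 6, Lct rank 11, Prox1 rank 197, the CA1 member Spink8 rank 502, Tdo2 rank 1186 and Trpc6 rank 2319. For Dsp, Lct had rank 4, Iqgap2 rank 11, Prox1 rank 48, Tdo2 rank 1181, Spink8 rank 1286 and Trpc6 rank 1712.

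The CA1 members were less closely tied. Wfs1 and Spink8 had r = 0.63, Fibcd1 and Spink8 0.44, and Wfs1 and Fibcd1 0.21. Fibcd1 was negative with all 5 dentate members, from -0.19 with Lct to -0.52 with Tdo2. The sign did not hold throughout, since Fibcd1 had 0.04 with Lct without the 2 libraries farthest from the median and 0.12 with Trpc6 within the virgin libraries. Spink8 was positive with Dsp (0.49) and Lct (0.50), as was Wfs1 with Lct (0.49), so the 15 pairs of a dentate with a CA1 member had a median of -0.02. The summed CA1 members ran from 294 to 446 CPM, and their correlation with the summed dentate members was -0.14 (rho = -0.33, n = 15).

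The closest pairs kept high correlations within each state. Within the 7 virgin libraries Dsp and Lct had r = 0.90 and Dsp and Iqgap2 r = 0.96, and within the 8 primiparous libraries 0.94 and 0.87. The median of the 10 dentate pairs was 0.58 within virgin and 0.66 within primiparous libraries. It was 0.55 without animal 413 and 0.44 without the 4 libraries over 900 CPM of choroid plexus genes. Other pairs differed more between the states. Tdo2 and Trpc6 had -0.15 within virgin and 0.88 within primiparous libraries, Wfs1 and Spink8 -0.11 and 0.85, and Tdo2 and Fibcd1 -0.12 and -0.73. With 7 and 8 libraries such values are imprecise, and their difference was not tested.

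**Figure D4:**
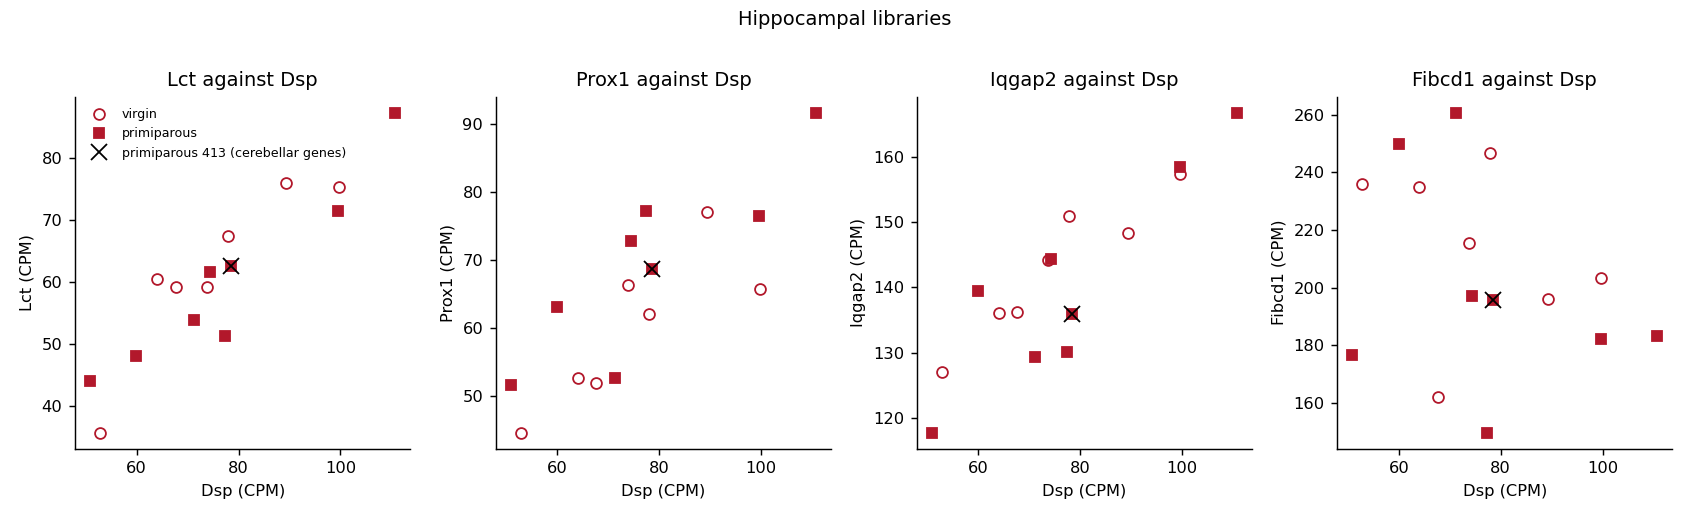
Lct, Prox1, Iqgap2 and Fibcd1 (vertical axes, CPM) against Dsp (horizontal axes, CPM) in the 15 hippocampal libraries; open circles are virgin and filled squares primiparous libraries, and the cross marks primiparous animal 413. Lct, Prox1 and Iqgap2 are higher where Dsp, which spans 50.9 to 111 CPM, is higher, and Fibcd1 is not.

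In the other regions the dentate pairs had lower medians, -0.11 in the amygdala (n = 15), 0.19 in the neocortex (n = 16), 0.07 in the hypothalamus (n = 16) and -0.13 in the cerebellum (n = 15). Dsp and Lct rest there on few counts, as does Tdo2 outside the cerebellum, which limits these correlations. In the cerebellum Tdo2 had -0.57 to 0.09 with the other 4 dentate members. Whether correlations differ between regions was not tested.

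**Figure D5:**
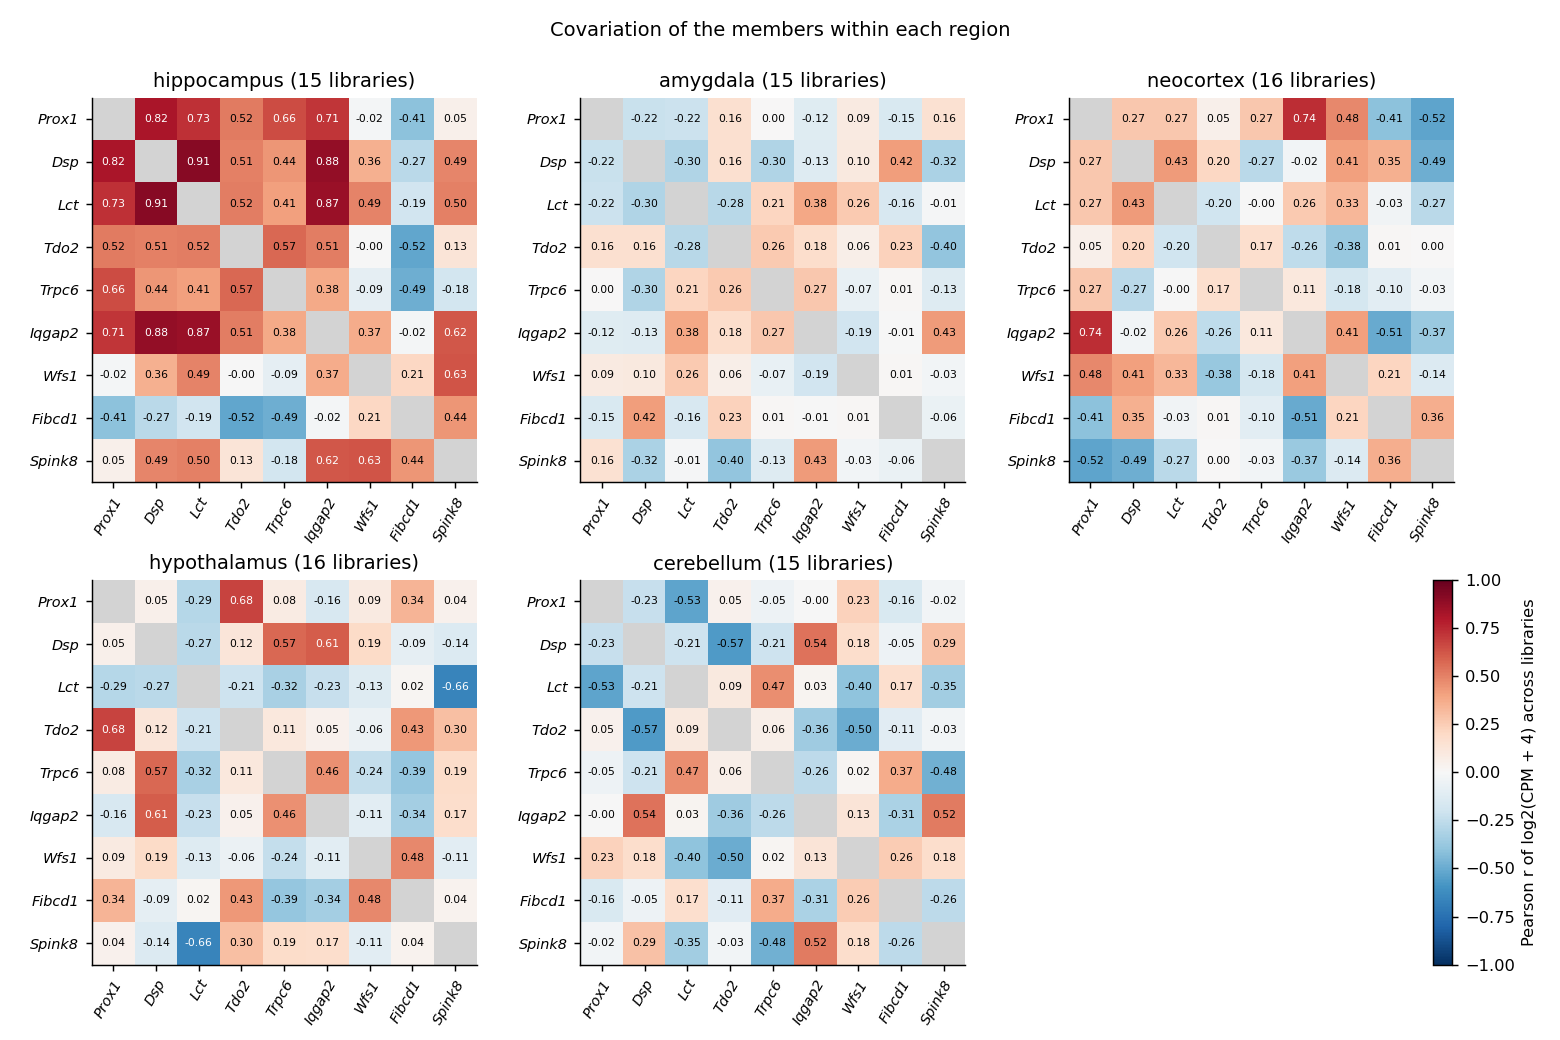
Pearson correlation of log2(CPM + 4) between each pair of members across the libraries of each region (colour and printed value; the number of libraries is in each title, and the diagonal is grey). In the hippocampus the block of Prox1, Dsp, Lct, Tdo2, Trpc6 and Iqgap2 is positive throughout, from 0.38 to 0.91, and the other panels show no such block.

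The ratio of the summed dentate to the summed CA1 members was also described. Fibcd1 and Wfs1 (means of 206 and 155 CPM) made up most of the CA1 sum and had r = 0.21 with each other. The ratio is therefore a summary of these members and no measure of the size of the fields. It was 0.388 in virgin animal 4488 and 0.848 in primiparous animal 4493, a span of 2.19-fold over the 15 libraries. Virgin libraries had a ratio of 0.568 ± 0.122 (n = 7) and primiparous libraries 0.646 ± 0.152 (n = 8), with overlapping ranges of 0.388 to 0.743 and 0.447 to 0.848. No test was made of this ratio. In animals 4488 and 4493 the summed dentate members were 158 and 322 CPM and the summed CA1 members 408 and 380 CPM.

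Of 12 other genes listed for dentate granule cells, 7 were higher in the hippocampus than in the amygdala, 10 than in the neocortex, 11 than in the hypothalamus and 9 than in the cerebellum, where 28.7%, 32.7%, 36.1% and 38.5% of all genes were higher. In the same order 2, 1, 1 and 3 of the 12 were lower. The 4 with the most counts in the hippocampus, an order that also depends on transcript length, were Pitpnm2 (351 ± 35.5 CPM), Fam163b (206 ± 36.2 CPM), the calcium-binding protein gene Calb1 (142 ± 26.2 CPM) and Stxbp6 (112 ± 17.2 CPM). Calb1, also a Purkinje cell gene, was lower in the hippocampus than in the cerebellum by -2.88 on the log2 scale. The other genes lower than in the cerebellum, named here after their values were seen, were Plk5 (26.0 against 81.1 CPM) and Il16 (49.9 against 251 CPM). Across the 15 hippocampal libraries the sum of the 12 genes had correlations of 0.90 with Dsp, 0.89 with Lct, 0.83 with Prox1 and 0.81 with Iqgap2. This sum had 0.67 with Tdo2, 0.57 with Trpc6, 0.44 with Spink8, 0.29 with Wfs1 and -0.30 with Fibcd1. The 12 genes were chosen with earlier results of these data known, so these counts and correlations are a description. None of the 12 passed between the states in the hippocampus, where 0% of all genes did.

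Of 5 other CA1 genes, 4, 3, 5 and 5 were higher in the hippocampus than in the amygdala, neocortex, hypothalamus and cerebellum. In the same order 1, 1, 0 and 0 of the 5 were lower. In the hippocampus Mpped1 had 264 ± 30.3 CPM, with 275 CPM in the neocortex, Ccn3 126 ± 30.7 CPM, Pou3f1 85.6 ± 12.4 CPM and Man1a 62.3 ± 7.24 CPM. Their sum had correlations of 0.65 with Fibcd1, 0.29 with Wfs1, 0.10 with Spink8 and -0.44 with Dsp. The sum of 8 CA3 genes, among them Bok (77.9 ± 11.9 CPM) and the kainate receptor gene Grik4 (64.1 ± 7.64 CPM), and that of 8 CA2 genes, among them Rgs14 (115 ± 13.7 CPM), had correlations between -0.56 and 0.38 with the 9 members. Of these lists 6 CA3 and 7 CA2 genes were tested. Against the amygdala, neocortex, hypothalamus and cerebellum, 4, 5, 4 and 5 of the CA3 genes were higher in the hippocampus. In the same order 2, 1, 2 and 1 were lower. Of the CA2 genes 3, 5, 3 and 5 were higher and 3, 2, 4 and 2 lower. Of all genes 28.7%, 32.7%, 36.1% and 38.5% were higher. None of the tested CA1, CA2 and CA3 genes passed between the states in the hippocampus, where 0% of all genes did.

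Lists of other cell types were summed in the same libraries. None of their tested genes passed between the states in the hippocampus, where 0% of all genes did. The 6 astrocyte genes, with Slc1a2 at 3482 CPM, summed to 4391 to 5613 CPM in virgin and 4822 to 5458 CPM in primiparous libraries, with correlations of -0.59 with Dsp, -0.57 with Lct and 0.07 with Trpc6. The summed oligodendrocyte genes lay between -0.27 and 0.23 with all 9 members. Meningeal fibroblast genes, at 90.5 to 260.4 CPM, had -0.54 with Lct and with Tdo2. Striatal genes had -0.69 with Prox1, at 76.1 to 99.4 CPM per library. The choroid plexus genes, transthyretin (Ttr) among them, had -0.42 to 0.16 with the 9 members, and the cerebellar genes -0.29 to 0.22. Hilar mossy cell genes summed to 16.0 to 37.1 CPM, of which Calb2 gave 22.4 CPM on average, and had -0.65 with Lct and -0.74 with Wfs1. Immature granule neuron genes had -0.09 to 0.49 with the members. Tubb3 gave 220.5 CPM of their mean sum of 288.9 CPM, so this sum is mostly that of Tubb3. Tubb3 had higher means in the other regions, from 299.1 to 463.4 CPM. Cortical projection neuron genes had -0.42 to 0.45, interneuron genes -0.24 to 0.14 and thalamic genes -0.51 to 0.16. Whether these lists have a part in the covariation of the members was not tested.

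Over all 77 libraries, the 4 non-member genes closest to the summed dentate members by Pearson correlation of log2(CPM + 4) were Galnt17 (0.97), Gm2115 (0.94), Cabp7 (0.93) and Lefty1 (0.92). These 77 libraries fall into 5 regions, so the values mostly compare regional levels. Within the 15 hippocampal libraries the closest were Dgat2 (0.92), Npnt (0.91), Pitpnm2 (0.89), C1ql2 (0.88) and Osbp2 (0.88), of which Npnt, Pitpnm2 and C1ql2 were on the list of other dentate genes. C1ql2 encodes a secreted synaptic protein of the mossy fibres and had 105 CPM in the hippocampus against a mean of 7.63 CPM elsewhere.

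For the summed CA1 members the closest genes over 77 libraries were St6galnac5, Myo5b, Ncdn, Slit3 and Tnfaip8l3, with correlations of 0.95 to 0.96. Within the hippocampal libraries they were Fndc4 (0.91), Ppp1r16a (0.91), Tesk1 (0.90), Ptpru (0.89) and Sez6 (0.88). Fndc4, Ppp1r16a and Tesk1 had no higher mean in the hippocampus (88.4, 71.2 and 84.2 CPM) than elsewhere (91.0, 84.9 and 86.1 CPM).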

How the data were processed

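RNA-seq libraries (100-base single-end reads, poly(A) selection, NEBNext Ultra) were compared between 5 regions and 2 reproductive states. The gene counts were deposited by the authors, who used HISAT2 and featureCounts on mm10 per the labels, without stated versions or strand setting. Their second deposited table holds log2 values, log2(count over size factor + 4), for 13016 genes. The filter used here, taken from the study, kept the same number, with 8 or more libraries at 5 CPM or above. Library totals ran from 7959192 to 37871854 counts. The 3 libraries that the authors left out were not used here. Of 11934 symbols in both sources, 292 differed between the deposited log2 table and RefSeq, and RefSeq names were used.

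Counts were tested with edgeR 4.0.16 (R 4.3.3, TMM factors, robust quasi-likelihood F-test, 2-sided) with Benjamini-Hochberg adjustment over all tested genes, 1 fit for each comparison of states, and a call at an adjusted p under 0.05. The study's own test, limma-voom, was run here with limma 3.58.1 as an alternative, beside DESeq2 1.42.0, other scaling factors, no filter, a covariate for the series of animal numbers, a length and GC correction, 1 fit of all groups, the animal as a replicate block, and each library left out. Analyses of the deposited log2 values, and those without certain libraries or within a state, were added after seeing the data. In simulated counts, 100 genes were changed by 0.5 and another 100 by 1 on the log2 scale. For the hippocampal comparison of states, 86% of those changed by 0.5 were recovered. The adjustment is more lenient with so many changed genes, and the real comparison called 0 genes. This share therefore gives no recovery rate for the members. CPM, correlations and figures were made with Python 3.11.15, numpy 2.4.6, pandas 2.3.3 and matplotlib 3.10.9. The same numbered animals gave all regions, which pairs libraries across regions only. Over pairs of regions, the median correlation of same-animal deviations lay between -0.013 and 0.104. Each animal is 1 replicate.

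The members and all gene lists were chosen with earlier results of these data known. The text names all 9 members, at most 4 genes of each other list by hippocampal CPM (beside Plk5 and Il16, added after their values were seen), and the 5 genes closest to each sum of members, of which 1 is not reported here.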

Additional observations from a re-analysis of the deposited data

Results flagged for a closer look

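In 11 of 90 groups of libraries (1 member, region and state each), 1 library lay far from the others by Dixon's criterion. Its rate of about 1 in 20 groups by chance holds for independent, normally distributed values. These groups share libraries and some hold few counts, so whether 11 is an excess was not tested. In the hippocampus such libraries were Lct in virgin animal 4488 (35.6 CPM), Trpc6 in virgin animal 4489 (25.3 CPM) and Wfs1 in virgin animal 409 (187 CPM). Animal 409 also had the highest virgin Wfs1 level in the hypothalamus (118 CPM).

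The other such libraries concerned members with low levels or the neocortex and amygdala. Dsp was 3.01 CPM in the neocortex of primiparous animal 418 and 3.83 CPM in the cerebellum of primiparous animal 421. Lct was 1.13 CPM in the cerebellum of primiparous animal 414, and Trpc6 was 13.1 CPM in the neocortex of primiparous animal 413. Spink8 was 5.19 CPM in the amygdala of primiparous animal 414 and 2.11 CPM in the neocortex of virgin animal 4486. Iqgap2 was 38.0 CPM in the amygdala of virgin animal 4486.

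The difference between states in Spink8 differed between the hippocampus and the hypothalamus by 0.92 on the log2 scale (edgeR, adjusted p = 0.0343), with 0 to 17 counts per hypothalamic library. The same animals gave both regions, and the call was lost with the animal as a replicate block (adjusted p = 0.0717) and with limma-voom (adjusted p = 0.0859).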

How the results depend on the processing

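The differences between the hippocampus and other regions kept their direction in the 8 alternatives run for each. Their sizes moved by over 1.5 times in 5 cases: on the deposited log2 values, which carry an added 4, Lct became 7.26 against the hypothalamus and 6.75 against the cerebellum, Spink8 6.09 against the cerebellum and Tdo2 3.85 against the hypothalamus, and with limma-voom Tdo2 became 4.53 against the amygdala. Between the states, where the hypothalamic Wfs1 call was the 1 call among the members, 2 members were called in the hypothalamus in 1 fit of all 10 groups and 0 with the number series as a covariate or with the length and GC correction. Leaving out 1 library gave 0 to 1. All genes called there fell from 2939 to 3 and 391 under those corrections. In the interaction of hippocampus and hypothalamus 0 members were called with limma-voom, 3 with DESeq2, and 2 with RLE factors, library totals alone or without animal 413, where 2054, 2645, 2291, 2345 and 2497 of all genes were called. With the animal as a replicate block (the pairing of regions) 0 members and 1449 genes were called, against 2243 genes without the block. For the interaction with the cerebellum, 22 genes became 219 with DESeq2 and 106 without animal 413. They became 51 on library totals alone, 46 with the replicate block, 42 with RLE factors, 13 with limma-voom and 7 without a filter. The median r of the CA1 pairs was 0.077 in virgin libraries alone. The causes were not tested.

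Estimates that reversed passed the threshold in neither fit. With the replicate block, for hippocampus minus amygdala, Lct became -0.18, Trpc6 -0.047 and Fibcd1 -0.10. With the length and GC correction, Prox1 became 0.044 in the neocortex and 0.051 in the hypothalamus, where Fibcd1 became -0.16 and Iqgap2 0.027. On library totals, Iqgap2 became -0.0093 in the neocortex. On the deposited log2 values, amygdala Lct became 0.095 and Trpc6 0.11, neocortex Fibcd1 0.0014, and hypothalamus Dsp -0.0016 and Fibcd1 -0.022. With limma-voom, amygdala Lct became 0.15 and Trpc6 0.041, hypothalamus Dsp -0.049 and Fibcd1 -0.018, hippocampus minus amygdala Dsp -0.16 and Lct -0.18, and hippocampus minus hypothalamus Dsp 0.12. Without a filter, cerebellum Fibcd1 became -0.024. With the number series, hippocampus Lct became 0.12 and Iqgap2 0.051, amygdala Dsp -0.49, Lct 0.39 and Trpc6 0.37, hypothalamus Fibcd1 -0.17 and Iqgap2 0.13, and cerebellum Tdo2 0.058 and Fibcd1 -0.60.

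Leaving out 1 library at a time gave these ranges. In the hippocampus, Dsp had -0.030 to 0.14, Lct -0.14 to 0.0165 and Iqgap2 -0.060 to 0.0093. In the amygdala, Prox1 had -0.18 to 0.033, Dsp -0.20 to 0.26, Tdo2 -0.024 to 0.82, Lct -0.29 to 0.18, Trpc6 -0.13 to 0.13 and Spink8 -0.10 to 0.22. In the neocortex, Prox1 had -0.16 to 0.087, Dsp -0.22 to 0.46, Lct -0.014 to 0.23, Fibcd1 -0.074 to 0.060, Spink8 -0.18 to 0.23 and Iqgap2 -0.020 to 0.10. In the hypothalamus, Dsp had -0.069 to 0.24, Trpc6 -0.18 to 0.013, Fibcd1 -0.060 to 0.071 and Iqgap2 -0.15 to 0.032. In the cerebellum, Dsp had -0.65 to 0.10, Tdo2 -0.089 to 0.042 and Fibcd1 -0.13 to 0.27. Depth limits Lct, Dsp, Tdo2 and Spink8 outside their main regions.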
